A study of Mus musculus with 4 samples.

Results

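Surface proteins through which a B cell can meet and instruct a T cell were followed at the mRNA level in mouse B cells responding to antigen. The members are *Cd80*, *Cd86*, *Cd83*, *Icam1*, *Icosl*, *Slamf1*, *Cd274*, *Pdcd1lg2*, *Cd69* and *Efnb1*, 10 of the 32285 genes in the 2 mRNA matrices. They were taken by name as T-cell contact and costimulation ligands, with no threshold on a measured value. MD4 B cells, whose transgenic B-cell receptor recognizes hen egg lysozyme (HEL), were transferred into CD45.1+ wild-type recipients of 8 to 12 weeks and of both sexes, which were immunized with sheep red blood cells coupled to HEL, and splenic B cells were taken on day 8. Every recipient held CD45.1+ *Dock8* wt/wt MD4 cells mixed with CD45.2+ MD4 cells, and the CD45.2+ cells carried a BCL2 transgene restricted to B cells. In 3 mice the CD45.2+ cells were *Dock8* wt/wt, and in 3 mice they were *Dock8* cpm/cpm, homozygous for an ENU-induced mutation described by the study as DOCK8-null. HEL+CD95+ cells of the 6 mice were marked with 1 hashtag antibody per mouse, pooled and split by sorting on CD45.1 or CD45.2, and each fraction gave 1 droplet-based mRNA library and 1 hashtag library. Fraction, BCL2 transgene and mRNA library therefore cannot be told apart, whereas the mouse groups lie within each library. In CD45.2+ cells these groups also differed in sex-linked transcripts, as given below.

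Germinal centers (GCs) are the sites in spleen and lymph node where activated B cells mutate their receptors in a dark zone (DZ) and are selected by follicular helper T cells in a light zone (LZ). CD80 and CD86 bind CD28 on the T cell, ICOSL binds ICOS, ICAM1 binds the integrin LFA-1, and SLAMF1 binds a second SLAMF1 molecule on the facing cell. CD274 (PD-L1) and PDCD1LG2 (PD-L2) bind the inhibitory receptor PD-1, ephrin-B1 binds Eph receptors on T cells, CD69 is an early activation marker that retains lymphocytes in tissue, and CD83 is a surface protein of activated B cells and dendritic cells that stabilizes MHC class II and CD86. In the GC field CD83 and CD86 are used as protein markers of the LZ.

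The deposited matrices count transcripts by unique molecular identifier (UMI), for each gene in each barcode. Hashtag assignment and the study's cell filter left 6488 CD45.2+ and 3204 CD45.1+ cells. The study kept clearly more CD45.2+ cells and slightly fewer CD45.1+ cells after its own assignment, whose settings could not be rebuilt here, so all cell numbers depend on the assignment used. The CD45.2+ cells numbered 2007, 2607 and 1672 in the *Dock8* wt/wt-labelled mice but only 57, 44 and 101 in the *Dock8* cpm/cpm-labelled mice, and the CD45.1+ cells numbered between 339 and 947 per mouse. Cell states were named from the study's marker lists without the 10 members, which were also held out of the genes used for clustering. The study, however, had annotated its LZ clusters with *Cd83*, *Cd86*, *Icam1*, *Slamf1* and *Cd40*, and its GC clusters with *Efnb1*, among other genes. For its LZ2 cluster it also listed *Cd69*, *Icosl*, *Batf* and *Nfkbid*. The state names borrowed from the study are therefore not independent of the members. Values are counts of a gene's UMIs scaled to the library total (CPM) summed per mouse and state. Of the UMIs of kept cells, *Cd83* had 11169, *Slamf1* 3179, *Cd86* 3153, *Icam1* 2297, *Efnb1* 1570, *Cd69* 1479, *Icosl* 995, *Cd274* 637, *Pdcd1lg2* 451 and *Cd80* 152. Between the sorts 38 barcodes were shared, 6 of them among kept cells.

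*Dock8* mRNA does not check the genotype labels, since an ENU-induced mutation need not remove the transcript. In CD45.2+ LZ-like and DZ-like cells it stood at 98.2, 114 and 98.1 CPM in the *Dock8* wt/wt-labelled mice and at 100.3, 86.2 and 63.6 CPM in the *Dock8* cpm/cpm-labelled ones (log2 fold change -0.44, edgeR adjusted p = 0.75). Sex-linked transcripts did separate the groups, so their part in a genotype result cannot be told apart from that of the genotype. In these cells *Xist* was at 1354 to 1641 CPM in the first group and at 361 to 582 CPM in the second, and summed Y-linked genes were at 3.77 to 5.75 CPM and at 97.0 to 148 CPM. Of the 95 cells in the second group, 30 had *Xist* and no Y-linked UMI, as 94.8% of cells in the first group did. Each genotype result was therefore also computed without the cells whose sex-linked transcripts went against their hashtag, which left 65 of those 95 cells. Another 32 of the 95 cells (33.7%) held both *Xist* and Y-linked UMIs, against 4.25% of cells in the first group. These 32 cells were kept, so the cells left in the second group still had mixed sex-linked transcripts.

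Marker genes did not bear out every state name. The LZ2-like and LZ4-like clusters had *Bcl6*, the transcriptional regulator of GC B cells, at 114 ± 20.3 and 122 ± 25.8 CPM (SD, n = 3 mice, CD45.2+ cells, mice labelled *Dock8* wt/wt), but the LZ1-like cluster had 38.2 ± 9.91 CPM, close to 34.5 ± 6.71 CPM in EarlyGC1-like cells. The LZ1-like cluster also had *Ighd*, the IgD heavy chain lost by most GC cells, at 894 ± 237 CPM against 273 CPM in LZ4-like cells, and *Rgs13*, a GC-enriched regulator of G-protein signaling, at 9.03 CPM against 158 CPM. Among the LZ-like CD45.2+ cells of these 3 mice, 91 of 152, 101 of 468 and 68 of 160 lay in that cluster. The comparisons of LZ-like with DZ-like cells, of the fractions and of the groups in CD45.2+ cells are given with it and without it, and *Bcl6*, *Ighd* and *Rgs13* were picked for this check after their values were seen.

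The members differed in where they peaked. In CD45.2+ cells of the *Dock8* wt/wt-labelled mice, *Cd86*, *Cd83*, *Icam1*, *Slamf1* and *Cd69* had their highest mean in LZ2-like cells, *Icosl* and *Efnb1* in LZ4-like cells, *Pdcd1lg2* in LZ1-like cells, *Cd274* in Activated2-like cells and *Cd80* in EarlyGC2-like cells. CD45.1+ cells had the same leading state for *Cd86*, *Cd83*, *Icam1*, *Slamf1*, *Icosl*, *Efnb1* and *Cd80*. Each order is a description, and most neighbours in it overlapped between mice.

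**Figure D1:**
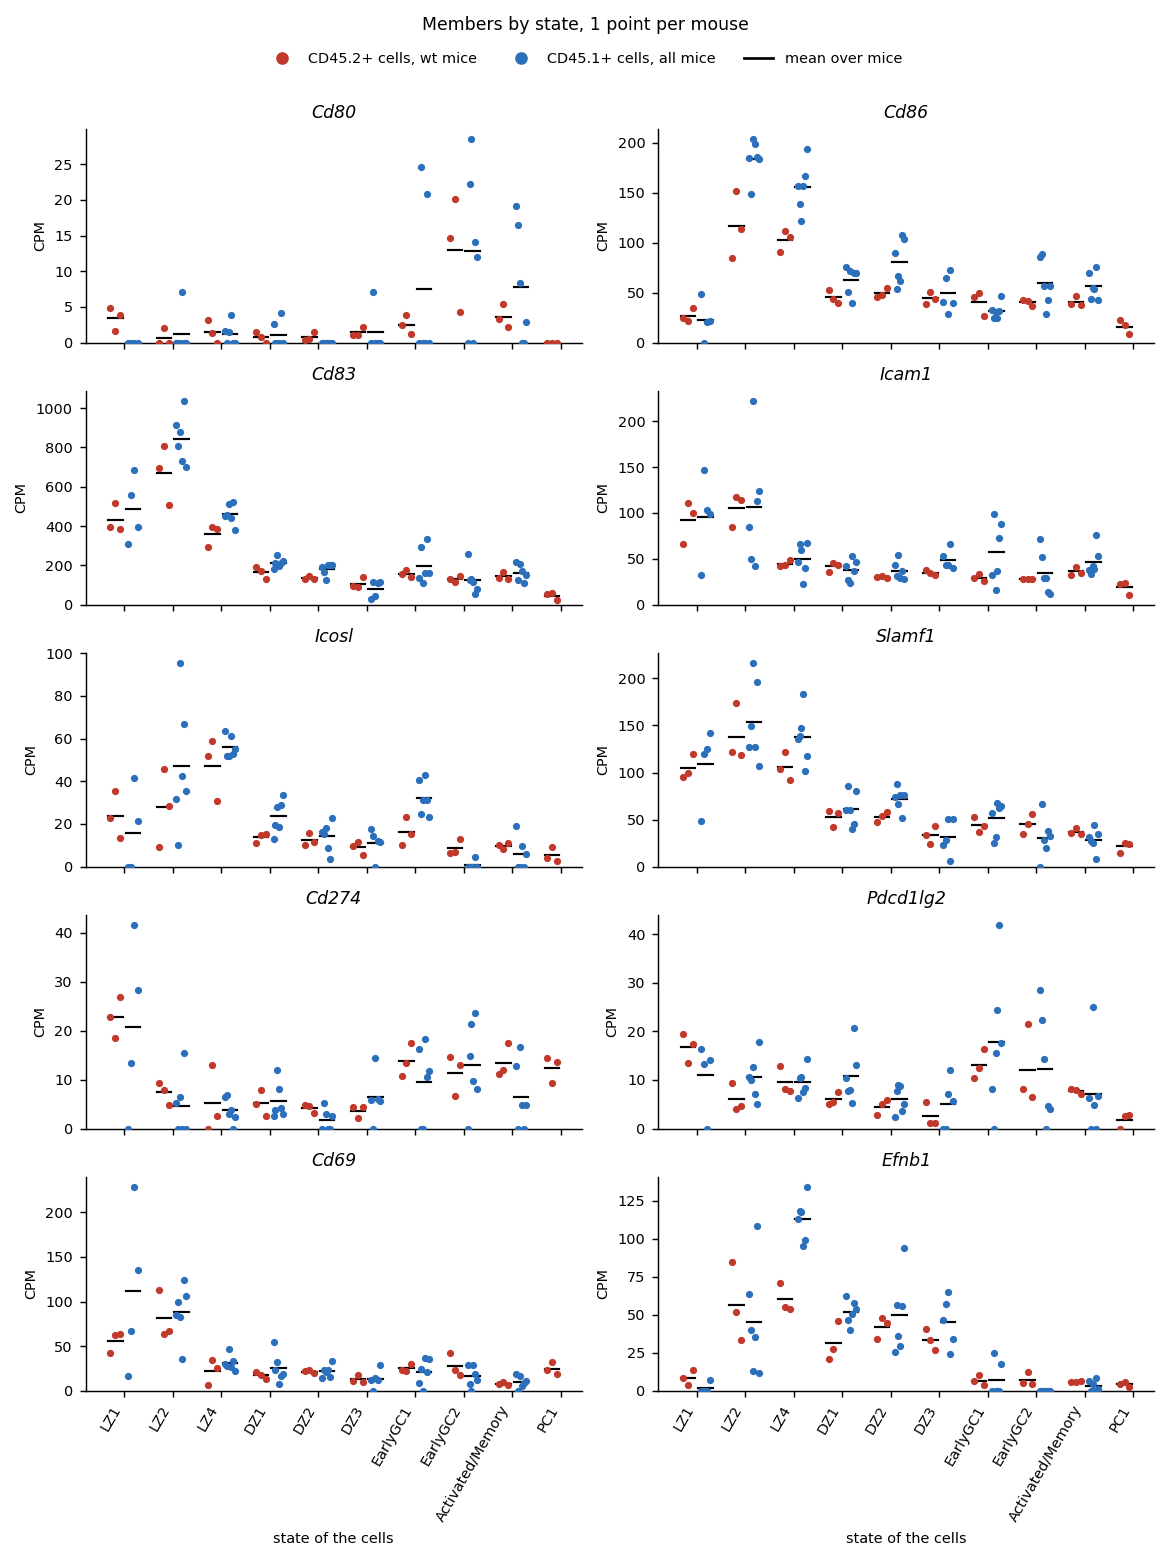
CPM (vertical axis, linear, own scale per gene) of each member in 10 states (horizontal axis), with 1 point per mouse with at least 10 cells, red for CD45.2+ cells of the 3 *Dock8* wt/wt-labelled mice, blue for CD45.1+ cells of all mice, and a black bar for the mean. *Cd83* stands highest in LZ2-like cells in both fractions, and *Efnb1* is near 0 in LZ1-like, EarlyGC1-like and EarlyGC2-like cells.

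Among the ligands of CD28 and ICOS, *Cd86* (ENSMUSG00000022901, chr16:36603869-36666081, minus strand, mm10) had 84.5, 152 and 114 CPM in LZ2-like and 90.5, 112 and 105 CPM in LZ4-like CD45.2+ cells of the 3 *Dock8* wt/wt-labelled mice. All other states lay below both, with LZtoPrePC/Memory-like cells next at 67.4 ± 9.40 CPM (SD, n = 3) and no overlap. LZ1-like cells held 26.9 ± 6.74 CPM (SD, n = 3) of *Cd86*, near the 24.0 ± 10.6 CPM of the T-cell cluster. That cluster had 6 UMIs of *Cd86* and also held B-cell markers, at 2018 to 3586 CPM, so it is not a clean floor. Plasma-cell-like clusters had lower means, from 7.26 ± 1.09 CPM in CyclingPC/PB-like to 16.1 ± 7.42 CPM in PC1-like cells (SD, n = 3). *Icosl* (ENSMUSG00000000732, chr10:78069302-78083913, plus strand) had 51.7, 58.7 and 30.8 CPM in LZ4-like cells and overlapped there with the next states, LZtoPrePC/Memory-like at 29.7 ± 27.5 CPM and LZ2-like at 27.9 ± 18.3 CPM (SD, n = 3). *Cd80* (ENSMUSG00000075122, chr16:38455561-38496335, plus strand) peaked outside the GC-like states, at 13.0 ± 8.01 CPM (SD, n = 3; 26 UMIs) in EarlyGC2-like cells, a cluster led by *S100a6* and *Ahnak*. In LZ2-like cells of the same mice *Cd80* had 1 UMI in all.

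*Cd83* (ENSMUSG00000015396, chr13:43784775-43803132, plus strand) had 695, 808 and 508 CPM in LZ2-like, 395, 519 and 385 CPM in LZ1-like and 291, 397 and 385 CPM in LZ4-like cells. Neighbours in this order overlapped in CD45.2+ cells. In CD45.1+ cells the LZ2-like value of 843 ± 125 CPM (SD, n = 6 mice) lay above every mouse of the next state, LZ1-like cells at 487 ± 167 CPM (SD, n = 4 mice). Plasma-cell-like clusters were low in *Cd83*, with 21.1 ± 7.58 CPM in PC3-like CD45.2+ cells (SD, n = 3) and 2.19 ± 3.05 CPM in PC3-like CD45.1+ cells (SD, n = 6).

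Of the adhesion molecules, *Icam1* (ENSMUSG00000037405, chr9:21015985-21028817, plus strand) formed a plateau over LZ2-like and LZ1-like CD45.2+ cells, at 105 ± 18.2 and 92.6 ± 23.3 CPM (SD, n = 3), and no mouse of another state reached either. LZ4-like cells came next at 44.6 ± 3.62 CPM (SD, n = 3). *Slamf1* (ENSMUSG00000015316, chr1:171767127-171801184, plus strand) was spread more evenly, with 138 ± 30.8 CPM in LZ2-like, 106 ± 14.8 in LZ4-like and 105 ± 12.7 in LZ1-like cells (SD, n = 3), all overlapping. Below LZtoPrePC/Memory-like cells the *Slamf1* level fell without overlap to 53.0 ± 5.43 CPM in DZ2-like cells. In CD45.1+ cells the *Icam1* plateau did not stand apart. There *Icam1* ranged from 42.5 to 222 CPM in LZ2-like and from 32.5 to 146 CPM in LZ1-like cells, against 15.5 to 98.5 CPM in EarlyGC1-like cells.

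The PD-1 ligands had another order. *Cd274* (ENSMUSG00000016496, chr19:29367455-29388095, plus strand) had 36.04 ± 10.9 CPM in Activated2-like cells and 22.7 ± 4.19 CPM in LZ1-like cells (SD, n = 3), which overlapped, and its lowest values were in the DZ-like clusters, LZ4-like cells (5.18 ± 6.87 CPM) and LZ2-like cells (7.38 ± 2.38 CPM). *Pdcd1lg2* (ENSMUSG00000016498, chr19:29410919-29471161, plus strand), whose gene starts 22823 bases beyond the end of *Cd274*, had 16.7 ± 3.02 CPM in LZ1-like and 13.1 ± 3.02 CPM in EarlyGC1-like cells (SD, n = 3). Both genes thus had their higher levels in *Ighd*-rich or activated states, and all their neighbours in the order overlapped.

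*Cd69* (ENSMUSG00000030156, chr6:129267325-129275436, minus strand) had 113, 63.9 and 66.5 CPM in LZ2-like cells and 42.1, 62.4 and 63.4 CPM in LZ1-like cells. No mouse overlapped between these neighbours, but 63.9 and 63.4 CPM nearly met, and the 113 CPM came from 16 cells. The paired test between these states, given below, did not call *Cd69*. In CD45.1+ cells the LZ1-like mean of 111 ± 91.7 CPM (SD, n = 4) stood above the LZ2-like mean of 88.7 ± 30.2 CPM (SD, n = 6), with overlap. *Efnb1* (ENSMUSG00000031217, chrX:99136130-99148991, plus strand) had 71.1, 55.3 and 53.9 CPM in LZ4-like and 84.5, 51.9 and 33.2 CPM in LZ2-like cells, followed by the DZ-like clusters at 31.6 to 42.1 CPM, whereas LZ1-like, EarlyGC1-like, EarlyGC2-like and Activated/Memory-like cells had means from 5.91 to 8.31 CPM. In CD45.1+ cells *Efnb1* stood at 113 ± 13.9 CPM (SD, n = 6) in LZ4-like cells, above every mouse in the DZ-like clusters.

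The first comparison asked how the members differ between zones. In CD45.2+ cells of the *Dock8* wt/wt-labelled mice, 8 of the 9 members tested were higher in LZ-like than in DZ-like cells by edgeR's quasi-likelihood test with the mouse as a block, against 21.2% of all genes called higher. *Cd80* had too few UMIs to be tested. *Cd83* had 395, 506 and 408 CPM in LZ-like and 141, 141 and 132 CPM in DZ-like cells (log2 fold change 1.67 ± 0.10 SE, edgeR adjusted p = 2.08e-59). *Icosl* had 30.01, 50.8 and 22.3 CPM against 10.2, 14.8 and 11.3 CPM (1.52 ± 0.19, edgeR adjusted p = 6.14e-15). Neither gene overlapped between the zones.

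*Cd86*, the other GC marker, differed less, with 50.3, 98.9 and 74.1 CPM in LZ-like and 46.2, 47.3 and 48.6 CPM in DZ-like cells (log2 fold change 0.69 ± 0.13 SE, edgeR adjusted p = 3.37e-07). The fold changes of the other called members on the log2 scale were 1.67 for *Cd274*, 1.38 for *Pdcd1lg2*, 1.29 for *Cd69*, 1.23 for *Slamf1* and 1.10 for *Icam1*. *Efnb1* had 34.9, 42.6 and 31.2 CPM in LZ-like and 31.4, 38.9 and 41.5 CPM in DZ-like cells (log2 fold change -0.01, 95% interval -0.31 to 0.29). Without the LZ1-like cluster *Efnb1* was called higher in the LZ (0.52, edgeR adjusted p = 0.017), while *Cd274* (0.67, adjusted p = 0.22) and *Pdcd1lg2* (0.76, adjusted p = 0.16) were not called, so that the calls on these 3 genes rested on that cluster.

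CD45.1+ cells, in which few LZ-like cells were LZ1-like, repeated the comparison in 6 mice that were all *Dock8* wt/wt in this fraction. All 7 members tested were higher in LZ-like cells, against 25.1% of all genes. *Cd86* ranged from 126 to 166 CPM (median 155) in LZ-like and from 54.6 to 85.5 CPM (median 68.5) in DZ-like cells, without overlap (log2 fold change 1.195 ± 0.11 SE, edgeR adjusted p = 2.51e-26). *Efnb1* ranged from 66.4 to 98.0 CPM (median 90.7) against 37.1 to 63.6 CPM (median 46.0), again without overlap (0.92 ± 0.13, edgeR adjusted p = 1.87e-11). For *Cd83* the fold change was 1.73, for *Icosl* 1.55, for *Cd69* 1.36, for *Slamf1* 1.23 and for *Icam1* 0.84, and the same 7 members were called without the LZ1-like cluster. *Cd274* and *Pdcd1lg2* were too low to be tested.

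The LZ to DZ difference itself was compared between the fractions in the 3 *Dock8* wt/wt-labelled mice, a test added after the data were seen. None of 9 members passed it, against 0.0617% of all genes, and 597 of 8106 genes had an unadjusted p under 0.05. *Efnb1* came nearest, with a difference of -0.69 on the log2 scale (95% interval -1.15 to -0.23, edgeR adjusted p = 0.33) in CD45.2+ minus CD45.1+ cells. Of 19 other B-cell surface molecules that meet T cells, 16 were higher and 2 lower in LZ-like than DZ-like CD45.2+ cells (median log2 fold change 0.78 against 0.01 over all genes). *Cd40*, the receptor for T-cell CD40L, rose by 1.48, *Cd84* by 1.26 and *Itga4* by 1.22, while *Cd24a* (-1.09) and *Plxnb2* (-0.56) were lower. In CD45.1+ cells 14 of 18 were higher and 2 lower.

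**Figure D2:**
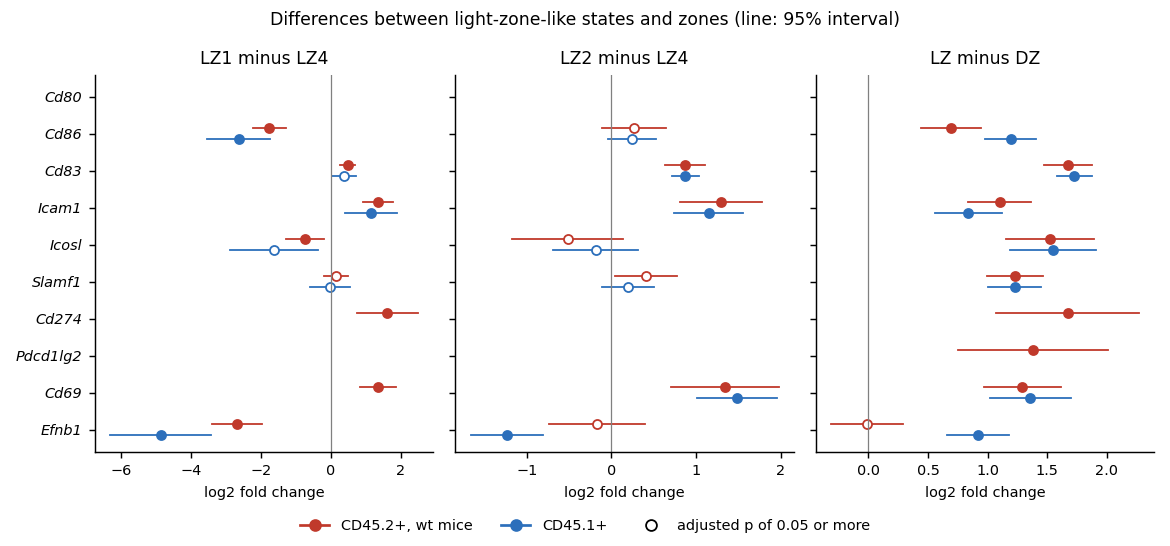
Log2 fold change (horizontal axis) of each member (vertical axis) between LZ1-like and LZ4-like cells, LZ2-like and LZ4-like cells, and LZ-like and DZ-like cells, in CD45.2+ cells of the *Dock8* wt/wt-labelled mice (red) and CD45.1+ cells (blue), with 95% intervals. Filled points passed an edgeR adjusted p of 0.05. *Cd83*, *Icam1* and *Cd69* lie right of 0 in the middle panel in both fractions, and *Cd86* and *Efnb1* lie left of 0 in the first panel.

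Within the LZ, LZ2-like cells were compared with LZ4-like cells. The LZ2-like cluster is named from genes of recent receptor and CD40 signaling such as *Egr1*, *Egr3* and *Nfkbia*, and the LZ4-like cluster, the largest of the LZ, was led by *Efnb1*, *Zbtb20* and *Rgs2*. In CD45.2+ cells of the *Dock8* wt/wt-labelled mice, 3 of the 7 members tested were higher in LZ2-like cells and none lower, against 14.1% of all genes called in either direction and 7.99% called higher. The same 3 members were higher among 7 tested in CD45.1+ cells, where 1 more, *Efnb1*, was lower, against 25.4% of genes called in either direction and 13.1% called higher.

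*Cd83* had 695, 808 and 508 CPM in LZ2-like and 291, 397 and 385 CPM in LZ4-like CD45.2+ cells, without overlap (log2 fold change 0.87 ± 0.12 SE, edgeR adjusted p = 1.92e-07). *Icam1* had 84.5, 118 and 114 CPM against 42.02, 43.0 and 48.7 CPM, also without overlap (1.30 ± 0.24, edgeR adjusted p = 7.69e-05). *Cd69* had 113, 63.9 and 66.5 CPM against 6.46, 34.1 and 25.6 CPM (1.34 ± 0.32, edgeR adjusted p = 0.0019). *Icam1* was not called without mouse 2 of the group (adjusted p = 0.11) and *Cd69* not without mouse 3 (adjusted p = 0.12).

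Repeated in the 6 mice of the CD45.1+ fraction, *Cd83* ranged from 698 to 1036 CPM (median 841) in LZ2-like and from 377 to 523 CPM (median 454) in LZ4-like cells, without overlap (log2 fold change 0.88 ± 0.08 SE, edgeR adjusted p = 1e-24). *Cd69* ranged from 35.4 to 124 CPM (median 91.9) against 21.5 to 47.2 CPM (median 29.0), with overlap through 1 mouse (1.48 ± 0.24, edgeR adjusted p = 2.80e-08). *Icam1* ranged from 42.5 to 222 CPM (median 98.9) against 22.9 to 66.9 CPM (median 52.8) and overlapped more (1.15 ± 0.21, edgeR adjusted p = 7.34e-07). *Efnb1* went the other way, from 11.8 to 108 CPM (median 37.6) against 95.4 to 134 CPM (median 115), with 1 mouse of 6 in the overlap (-1.24 ± 0.22, edgeR adjusted p = 3.28e-07).

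*Cd86* did not separate LZ2-like from LZ4-like cells, with log2 differences of 0.27 (95% interval -0.11 to 0.65) in CD45.2+ and 0.25 (-0.04 to 0.53) in CD45.1+ cells. *Slamf1* (0.41 and 0.20) and *Icosl* (-0.52 and -0.19) were not called in either fraction. *Efnb1* in CD45.2+ cells had a difference of -0.17 (95% interval -0.74 to 0.39), and whether this differs from the CD45.1+ value was not tested. With hashtag counts normalized over each cell, only *Cd83*, *Cd86* and *Slamf1* could be tested in CD45.1+ cells, and *Cd83* was not called (0.25, edgeR adjusted p = 0.44).

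Targets of CD40 and NF-kB signaling rose in the same comparison, where 10 of 11 tested were higher in LZ2-like CD45.2+ cells (median log2 fold change 1.45 against -0.02 over all genes) and 8 of 10 in CD45.1+ cells. The largest in CD45.2+ cells were *Nfkbid* (2.92), *Bcl2a1b* (2.44) and *Batf* (1.98), and some genes of the list were among the markers that formed and named the clusters. Of the other surface partners only *Cd40* (0.94) was called among 16 tested in CD45.2+ cells, and in CD45.1+ cells *Cd40* (1.203) was higher and 3 were lower of 12, *Slamf6* (-1.03), *Sema4d* (-0.40) and *Cd24a* (-0.29), against 12.3% of all genes called lower. T cells themselves express *Cd69* and *Slamf1*. Of 8 T-cell markers, the 7 other than *Lck* summed to between 0 and 9.98 CPM in LZ2-like CD45.2+ cells and to between 0 and 6.83 CPM in LZ4-like cells, against 3430 to 3800 CPM in the T-cell cluster. *Lck*, which these B cells also held, was at 109 ± 16.9 and 59.6 ± 12.6 CPM (SD, n = 3), and its part in the result was not tested.

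Promoter sequence is shown for *Icam1*, which rose in LZ2-like cells together with NF-kB targets, for *Efnb1*, which did not, and for the neighbouring PD-1 ligand genes. The sequences are the 250 bases before the RefSeq transcription start on GRCm38.p6, plus strand, 5′ to 3′, and 7 of the 10 members had one in the table used. Capitals mark a match to a kappaB motif on either strand.
*Icam1* (chr9:21015690-21015939): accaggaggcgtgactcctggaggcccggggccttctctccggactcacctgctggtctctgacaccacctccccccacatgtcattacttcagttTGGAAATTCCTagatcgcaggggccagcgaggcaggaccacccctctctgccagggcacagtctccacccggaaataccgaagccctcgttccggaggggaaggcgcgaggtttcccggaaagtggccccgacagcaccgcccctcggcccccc
*Pdcd1lg2* (chr19:29410669-29410918): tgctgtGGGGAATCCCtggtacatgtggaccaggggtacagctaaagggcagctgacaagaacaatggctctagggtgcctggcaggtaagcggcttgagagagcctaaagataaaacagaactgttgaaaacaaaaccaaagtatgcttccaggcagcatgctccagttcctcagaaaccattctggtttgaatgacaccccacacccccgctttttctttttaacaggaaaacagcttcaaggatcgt
*Cd274* (chr19:29367188-29367437): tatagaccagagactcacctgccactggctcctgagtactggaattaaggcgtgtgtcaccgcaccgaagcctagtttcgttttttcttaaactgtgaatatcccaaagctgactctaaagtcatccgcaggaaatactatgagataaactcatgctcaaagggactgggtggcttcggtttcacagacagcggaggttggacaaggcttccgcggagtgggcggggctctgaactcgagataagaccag
*Efnb1* (chrX:99135811-99136060): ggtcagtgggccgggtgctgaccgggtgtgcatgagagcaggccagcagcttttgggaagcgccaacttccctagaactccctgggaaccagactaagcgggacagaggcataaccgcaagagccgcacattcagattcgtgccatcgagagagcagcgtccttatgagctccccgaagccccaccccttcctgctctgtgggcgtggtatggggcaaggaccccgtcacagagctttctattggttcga
The NF-kB consensus, found in 3.90% of 32851 promoters of this length, matched once in *Pdcd1lg2*, 244 bases before the start. A relaxed Rel consensus, chosen after the letters of the *Icam1* promoter had been seen and found in 6.94% of promoters, matched in *Icam1* at overlapping positions 154 and 153 bases before the start and in *Icosl* 112 bases before it. Neither motif was found in *Cd80*, *Slamf1*, *Cd274* or *Efnb1*. A match is a description of letters, and *Pdcd1lg2*, which has the stricter one, was too low to be tested between LZ2-like and LZ4-like cells.

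The LZ1-like cluster divided the members, in comparisons added after the data were seen. Against LZ4-like cells, 4 of 8 members tested in CD45.2+ cells of the *Dock8* wt/wt-labelled mice were higher and 3 lower, against 21.7% of all genes called. *Icam1* had 66.4, 111 and 99.98 CPM in LZ1-like cells against 42.02, 43.0 and 48.7 CPM (log2 fold change 1.34 ± 0.22 SE, edgeR adjusted p = 8.95e-08). *Cd69* (1.36, adjusted p = 7.74e-06), *Cd274* (1.62, adjusted p = 0.0028) and *Cd83* (0.49, adjusted p = 1e-04) were also higher. *Cd274* rested on 14, 11 and 14 UMIs against 0, 19 and 1 UMIs and was not called without mouse 1 (adjusted p = 0.086) or mouse 3 (0.071), and *Cd83* was not called without mouse 2 (adjusted p = 0.071).

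*Efnb1* fell from 71.1, 55.3 and 53.9 CPM in LZ4-like to 8.10, 3.37 and 13.5 CPM in LZ1-like cells (log2 fold change -2.69 ± 0.36 SE, edgeR adjusted p = 1.93e-10). *Cd86* fell from 90.5, 112 and 105 CPM to 24.3, 21.9 and 34.6 CPM (-1.75 ± 0.24, edgeR adjusted p = 3.42e-10). *Icosl* was lower by less (-0.73, adjusted p = 0.047) and lost the call without any 1 of the 3 mice. In CD45.1+ cells, in 4 mice with at least 10 cells of each state, *Cd86* was again lower (-2.63, edgeR adjusted p = 2.1e-05), with 1, 3, 3 and 0 UMIs in LZ1-like cells, and *Efnb1* had 1 UMI there against 95.4 to 134 CPM in LZ4-like cells. These 2 and *Icam1* were the 3 called of 6 members tested, against 19.3% of all genes, while *Cd83* (0.37, adjusted p = 0.13) and *Icosl* (-1.62, adjusted p = 0.065) were not called. *Icam1* was higher (1.15, edgeR adjusted p = 0.022), but not without mouse 1 or mouse 3 of the *Dock8* wt/wt-labelled mice (adjusted p = 0.092 and 0.086) or mouse 3 of the *Dock8* cpm/cpm-labelled mice (0.22).

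LZ2-like and LZ1-like cells differed in *Cd86* and *Efnb1*, while the order of *Icam1*, *Cd69* and *Cd83* depended on the processing. In CD45.2+ cells 3 of 7 members tested were higher in LZ2-like cells, against 6.87% of all genes called higher, namely *Efnb1* (log2 fold change 2.51, edgeR adjusted p = 2.83e-06), *Cd86* (1.94, adjusted p = 1.05e-10) and *Cd83* (0.37, adjusted p = 0.017). The differences in *Icam1* (-0.09, 95% interval -0.52 to 0.35) and *Cd69* (0.10, -0.43 to 0.64) were not called. With hashtags normalized over each cell and at resolution 0.9 both were called lower in LZ2-like cells, with differences of -0.82 and -1.035 for *Icam1* and of -0.79 and -0.94 for *Cd69*, and *Cd83* (-0.062 and -0.19) was not called. The LZ2-like cluster held 827 and 1550 cells of both fractions under these settings, against 356 in the main one. At resolution 0.9 it took in the LZ4-like cells, so the name did not cover the same cells. *Cd83* was not called without mouse 1 (adjusted p = 0.17) or mouse 2 (0.28). NF-kB targets were higher in LZ1-like than LZ4-like cells in 11 of 12 cases tested, led by *Batf* (2.14), *Tnfaip3* (2.12) and *Traf1* (1.94), and between LZ2-like and LZ1-like cells 3 were higher and 1 lower of 12, beside 8.47% of all genes called lower.

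Per cell the members were sparse. After thinning every cell to 2000 UMIs, which left out 131 CD45.2+ cells of the *Dock8* wt/wt-labelled mice and 120 CD45.1+ cells, a LZ-like CD45.2+ cell held UMIs of 1.29 ± 0.126 members on average (SD, n = 3 mice) and a DZ-like cell of 0.655 ± 0.0297. The values were 1.55 ± 0.0969 and 0.817 ± 0.109 in CD45.1+ cells (SD, n = 6), and no mouse overlapped between the zones in either fraction. LZ2-like cells had the highest value, 1.71 ± 0.197 members in CD45.2+ cells (SD, n = 3), against 1.22 ± 0.117 in LZ4-like and 1.198 ± 0.110 in LZ1-like cells. Without thinning the zones lay close in CD45.2+ cells, at 2.51, 2.66 and 2.67 members in LZ-like and 2.47, 2.25 and 2.34 in DZ-like cells. DZ-like cells were deeper, with a median of 10164 UMIs in the DZ2-like against 4004 in the LZ4-like cluster of both fractions. Thinned counts and CPM thus give a member's share of a cell's UMIs and not its amount per cell.

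*Cd83* was found in 72.1% of thinned LZ2-like CD45.2+ cells (95% exact binomial interval 63.5 to 79.6; 96.2% unthinned), in 54.2% of LZ1-like and 49.4% of LZ4-like cells. Plasma-cell-like cells, which should lack it, gave 6.71% and T cells 16.7%, with median depths of 8177 and 3337 UMIs against 5474.5 in LZ2-like cells. *Cd86* was found in 24.8% of LZ2-like, 20.3% of LZ4-like and 6.54% of LZ1-like cells (95% interval 3.85 to 10.3), beside 2.42% (1.69 to 3.35) of plasma-cell-like cells and 6.25% (1.31 to 17.2) of T cells. *Efnb1* had 12.4%, 10.4% and 1.15%, beside 1.04% of plasma-cell-like cells and 2.08% of T cells. *Cd274* had 5.38% of LZ1-like cells (95% interval 2.97 to 8.87) against 1.87% (1.23 to 2.71) of plasma-cell-like cells and 4.17% (0.509 to 14.3) of T cells. The T-cell cluster held only 48 thinned CD45.2+ cells. Its 5 B-cell markers summed to 2018 to 3586 CPM, against 39.8 to 465 CPM in CD45.1+ cells, so its CD45.2+ shares are not a clean background. These intervals cover counting error only.

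Pairs of members in the same cell were counted in thinned LZ-like cells, as a description. *Icam1* and *Cd69* were found together in 20 of 774 CD45.2+ cells where the product of their shares gives 8.20 cells, and in 17 of 1012 CD45.1+ cells against 9.86. *Cd69* and *Efnb1* were found together in 1 CD45.2+ cell against 4.65, and in 7 CD45.1+ cells against 12.3. *Cd83* and *Icam1* were together in 57 CD45.2+ cells against 57.0. The states mix in these counts, and the cells share their library and depth. Within LZ4-like cells *Icam1* and *Cd69* were together in 7 CD45.2+ cells against 2.02, but in 4 CD45.1+ cells against 4.27. In LZ2-like CD45.1+ cells they were together in 11 against 5.60. *Cd69* and *Efnb1* were together in 0 LZ4-like CD45.2+ cells against 2.18 and in 7 LZ4-like CD45.1+ cells against 7.87.

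Across 13 states of at least 100 cells in CD45.2+ cells, the genes most like each member were found among 8280 genes by the correlation of log2(CPM + 10). For *Cd86* they were *Tnfrsf13c* (Pearson r = 0.98), *Rab4b* and *Sorl1*, for *Cd83* *Stx6*, *Fcer2a* and *Swap70*, and for *Slamf1* *Swap70*, *Dusp10* and *Stx6*. *Icam1* was most like *Bcl3* (r = 0.98), *Nfkbie* and *Cyb5r3*, and *Cd69* most like *Nfkbia* (r = 0.92), *Abcc1* and *Tnfaip3*. *Efnb1* was most like *Rgs13* (r = 0.97), *Lcp2* and *Whrn*, *Icosl* most like *Slc35b4*, *Rfx5* and *Slc14a1*, *Cd274* most like *Tmcc3*, *Izumo4* and *Gm4610*, and *Pdcd1lg2* most like *Zfp329*, *Arl10* and *3830406C13Rik*. The leading genes differed across the 11 states of CD45.1+ cells, where *Icam1* was most like *Tank*, *Tsc22d2* and *Tor3a*, *Cd69* most like *S1pr3*, *Egr1* and *Ms4a6c*, and *Efnb1* most like *S1pr2*, *Atp8a1* and *Bcl6*. Among the members themselves *Cd83* and *Slamf1* had the closest orders (r = 0.98) and *Cd274* and *Efnb1* the most opposed (r = -0.52), and *Cd80* had too few UMIs. The points share 1 library and in part the genes that made the states, and the correlations are a description over 13 points.

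The next comparison set CD45.2+ against CD45.1+ cells of the same 3 mice labelled *Dock8* wt/wt, over LZ-like and DZ-like cells together. Of 9 members tested, 6 were lower in CD45.2+ cells and none was higher, against 6.92% of all genes called lower. LZ-like cells made up 29.4%, 52.4% and 28.4% of these cells in the CD45.2+ fraction and 52.2%, 69.9% and 48.4% in the CD45.1+ fraction, so the zones were in different proportions. The members' median log2 difference was -0.59, beside -0.01 over all genes. The fractions also differed in B-cell markers within the T-cell cluster, at 2018 to 3586 CPM in CD45.2+ and 39.8 to 465 CPM in CD45.1+ cells. In PC2-like cells *Cd83* was at 44.2 ± 12.6 CPM (SD, n = 3) and 8.57 ± 12.6 CPM (SD, n = 6). The part of this difference between the libraries in the comparison was not tested.

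*Cd86* had 47.0, 66.3 and 53.5 CPM in CD45.2+ and 92.4, 126 and 106 CPM in CD45.1+ cells, without overlap (log2 difference -0.96 ± 0.09 SE, edgeR adjusted p = 6.61e-12). *Efnb1* had 32.1, 40.2 and 39.5 CPM against 47.8, 73.6 and 69.9 CPM, without overlap (-0.78 ± 0.11, edgeR adjusted p = 2.82e-07). *Cd83* had 186, 275 and 185 CPM against 326, 423 and 294 CPM, without overlap (-0.69 ± 0.06, edgeR adjusted p = 5.43e-14). All 3 were lower in CD45.2+ cells within each mouse.

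*Icosl* had 13.7, 28.0 and 13.5 CPM against 27.6, 36.4 and 33.2 CPM and overlapped between the fractions (log2 difference -0.84 ± 0.16 SE, edgeR adjusted p = 1e-04). *Cd69* (-0.51, adjusted p = 0.0094) and *Slamf1* (-0.43, adjusted p = 0.0012) were the other 2 called. *Cd69* was not called without mouse 3 (adjusted p = 0.26) and *Slamf1* not without mouse 1 (0.058). *Icam1* (-0.20, 95% interval -0.43 to 0.03), *Cd274* (0.51, -0.19 to 1.21) and *Pdcd1lg2* (-0.59, -1.16 to -0.01) were not called.

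Without the LZ1-like cluster 7 members were lower, *Pdcd1lg2* (-0.87, edgeR adjusted p = 0.036) among them, against 7.92% of all genes. Within 1 zone or state fewer were called. In LZ-like cells alone 3 were lower (3.59% of all genes), *Cd86* by -1.01, *Efnb1* by -1.15 and *Cd83* by -0.30 on the log2 scale, and in DZ-like cells alone 2 were lower (2.49%), *Cd86* by -0.59 and *Cd83* by -0.47. In LZ4-like cells alone *Cd86* (-0.71, edgeR adjusted p = 0.0026) and *Efnb1* (-0.88, adjusted p = 0.0017) were lower, beside 1.63% of all genes. LZ4-like cells of the fractions differed in other markers too, with *Ighd* at 273 ± 95.6 CPM in CD45.2+ (SD, n = 3) and 76.3 ± 24.6 CPM in CD45.1+ cells (SD, n = 6). *Bcl6* was at 122 ± 25.8 and 154.5 ± 41.6 CPM and *Rgs13* at 158 ± 4.34 and 213 ± 41.9 CPM. Their part in the result was not tested. *Icosl*, *Cd69* and *Slamf1* were not called in any of the 3. Without a block for the mouse 4 members were called lower, beside 2.44% of all genes. Of the CD40 and NF-kB targets 4 of 13 were lower and 1, *Batf*, was higher in CD45.2+ cells, and of the other surface partners 4 of 20 were higher, led by *Vsir* (1.91), and 3 lower, led by *Tnfsf9* (-1.10).

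**Figure D3:**
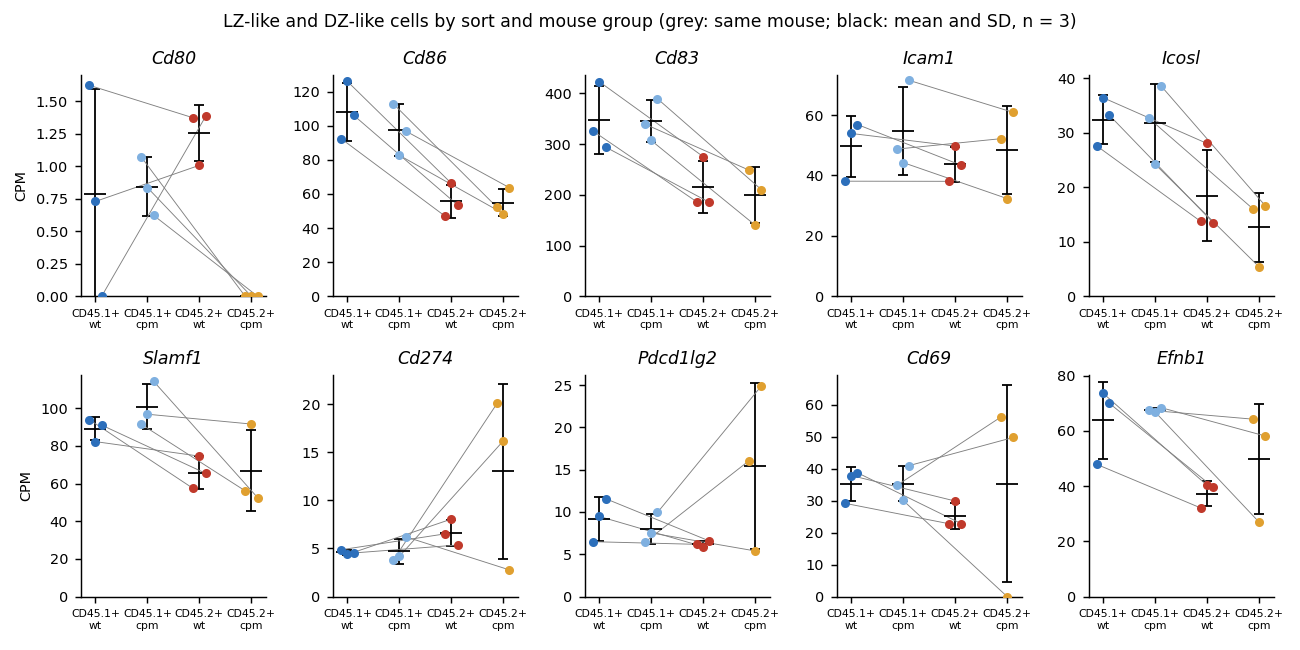
CPM (vertical axis, linear, own scale per gene) of each member over LZ-like and DZ-like cells, by fraction and mouse group, with 1 point per mouse, grey lines joining the fractions of 1 mouse, and black bars for the mean and SD (n = 3; bars end at 0 where the SD is larger than the mean). *Cd86* lies lower in both CD45.2+ groups than in both CD45.1+ groups, and within a fraction the mice labelled wt and cpm overlap for *Cd86*, *Cd83* and *Icam1*.

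The genotype comparison set CD45.2+ cells of the *Dock8* cpm/cpm-labelled mice against those of the *Dock8* wt/wt-labelled mice, over LZ-like and DZ-like cells. The first group held 36, 18 and 41 such cells and the second 517, 894 and 564. The LZ-like share was 61.1%, 38.9% and 48.8% in the *Dock8* cpm/cpm-labelled mice against the 29.4%, 52.4% and 28.4% given above, and the LZ1-like cluster held 24 of 95 and 260 of 1975 cells, and the part of these proportions in the result was not tested. No member was called without the LZ1-like cluster or within 1 zone. None of 9 members passed the edgeR test, against 0.0633% of all genes, and 584 of 9483 genes had an unadjusted p under 0.05. On simulated counts of this depth, 43% of 2-fold and 69% of 4-fold changes were recovered, so changes of this size could be missed. The simulation gave every gene the same dispersion and changed genes drawn from all those tested. Its shares are thus averages over genes and not the recovery for these members.

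*Cd86* had 52.2, 48.5 and 63.6 CPM in the first group and 47.0, 66.3 and 53.5 CPM in the second (log2 difference -0.06, 95% interval -0.58 to 0.45). *Cd83* had 249, 140 and 210 CPM against 186, 275 and 185 CPM (-0.16, -0.53 to 0.21). *Icam1* had 52.2, 32.3 and 60.9 CPM against 38.1, 49.7 and 43.3 CPM (0.15, -0.38 to 0.67). The groups overlapped for all 3. Without the cells against their hashtag by sex-linked transcripts the differences were -0.06 (-0.67 to 0.55) for *Cd86*, 0.19 (-0.15 to 0.53) for *Cd83* and 0.15 (-0.46 to 0.77) for *Icam1*, and in DZ-like cells alone *Cd83* was at -0.60 (-1.06 to -0.14, edgeR adjusted p = 0.82). Without the LZ1-like cluster they were 0.07 (-0.46 to 0.60) for *Cd86*, -0.32 (-0.76 to 0.11) for *Cd83* and -0.04 (-0.71 to 0.64) for *Icam1*.

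For the sparser members the intervals were wider. The difference was -0.52 (95% interval -1.68 to 0.65) for *Icosl*, -0.14 (-0.62 to 0.33) for *Slamf1*, 0.68 (-0.52 to 1.88) for *Cd274*, 0.58 (-0.18 to 1.33) for *Cd69* and 0.41 (-0.13 to 0.95) for *Efnb1*. *Pdcd1lg2* had 16.1, 5.39 and 24.9 CPM (4, 1 and 9 UMIs) against 6.17, 5.89 and 6.56 CPM, a difference of 1.41 (95% interval 0.42 to 2.40) that did not pass (edgeR adjusted p = 0.64, and 0.11 to 0.95 over the alternatives). Without the LZ1-like cluster *Pdcd1lg2* was at 0.78 (95% interval -0.55 to 2.12) and *Cd274* at -0.77 (-2.97 to 1.42). *Icosl* was then at -1.30 (-2.84 to 0.24), *Efnb1* at 0.54 (-0.03 to 1.11) and *Slamf1* at 0.002 (-0.55 to 0.55). *Cd80* had no UMI in any of the 3 mice of the first group, where a count of 0 allows between 8.30 and 16.2 CPM, and 1.37, 1.01 and 1.38 CPM in the second. *Cd69* had no UMI in 1 mouse of the first group, and without the cells against their hashtag its difference was 1.13 (95% interval 0.45 to 1.82, edgeR adjusted p = 0.074). It was 0.93 (0.21 to 1.65, edgeR adjusted p = 0.48) in LZ-like cells alone, but -0.75 (-1.82 to 0.32) without the LZ1-like cluster and -1.69 (-3.11 to -0.26, adjusted p = 0.82) in DZ-like cells alone. *Slamf1* was at -0.58 (-1.18 to 0.02, edgeR adjusted p = 0.74) in LZ-like cells alone. *Efnb1* is X-linked, and the groups differed in sex-linked transcripts. None of the 13 CD40 and NF-kB targets or of the 19 other surface partners tested was called.

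The CD45.1+ cells beside them were *Dock8* wt/wt in every mouse, so this fraction asked whether the partner cells' genotype moved the members. None of 8 tested was called, against 0.0123% of all genes, with 363 of 8160 genes at an unadjusted p under 0.05. *Cd86* had 113, 82.7 and 96.9 CPM in the *Dock8* cpm/cpm-labelled mice and 92.4, 126 and 106 CPM in the *Dock8* wt/wt-labelled ones, and *Cd83* had 339, 307 and 390 CPM against 326, 423 and 294 CPM. The test of the difference itself, CD45.2+ minus CD45.1+ between the groups with the mouse as a block, called none of 9 members, against 0.0231% of all genes (509 of 8650 with an unadjusted p under 0.05). That difference was 0.09 for *Cd86*, -0.15 for *Cd83* and 1.58 for *Pdcd1lg2* (edgeR adjusted p = 0.72). It shares its CD45.2+ cells with the genotype comparison.

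EarlyGC1-like cells, which were rich in *Ighd*, held more cells of the *Dock8* cpm/cpm-labelled mice in CD45.2+ cells than any other state, with 15, 15 and 30 cells against 490, 471 and 148. None of 6 members tested was called by edgeR, against 0.430% of all genes, and 407 of 5347 genes had an unadjusted p under 0.05. *Cd83* had 260, 307 and 272 CPM in that group and 157, 175 and 140 CPM in the *Dock8* wt/wt-labelled mice. All 3 mice of the first group lay above all 3 of the second, with a log2 difference of 0.69 ± 0.18 SE (95% interval 0.34 to 1.05) and an edgeR adjusted p of 0.057.

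The *Cd83* difference lay close to the threshold on both sides. It was called with DESeq2 (adjusted p = 0.0057), after removal of cells whose sex-linked transcripts went against their hashtag (0.78, edgeR adjusted p = 0.048), and without mouse 2 (0.016) or mouse 3 (0.019) of the *Dock8* wt/wt-labelled ones. It shrank to 0.28 (edgeR adjusted p = 0.47) when each cell was given to a hashtag only where its counts were 3 or more times those of the second-ranked one, and to 0.31 (0.37) with hashtag counts normalized over each cell. The highest adjusted p over the alternatives was 0.51, without mouse 2 of the *Dock8* cpm/cpm-labelled mice. *Xist* stood at 104 to 186 CPM in these cells against 1350 to 1540 CPM. Summed Y-linked genes stood at 224 to 274 CPM against 3.14 to 7.02 CPM. Genotype and these sex-linked differences cannot be told apart in the *Cd83* result.

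*Cd69* in the same cells had 47.2, 98.6 and 19.4 CPM against 22.6, 21.97 and 30.4 CPM and overlapped (log2 difference 0.94, 95% interval 0.03 to 1.86, edgeR adjusted p = 0.63). *Icam1* had 35.4, 54.8 and 32.4 CPM against 28.7, 33.7 and 25.7 CPM (0.28, adjusted p = 0.91), and *Icosl* had 47.2, 32.9 and 19.4 CPM from 4, 3 and 3 UMIs against 10.1, 23.1 and 15.2 CPM (0.80, adjusted p = 0.79). The differences in *Cd86* (0.03) and *Slamf1* (-0.29) were not called either. None of the 10 CD40 and NF-kB targets tested was called here.

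**Figure D4:**
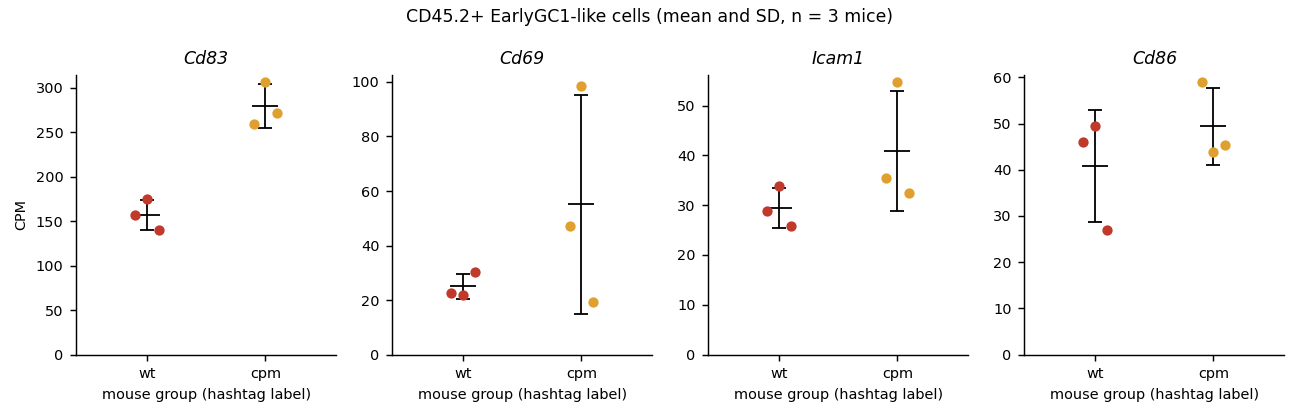
CPM (vertical axis, linear) of *Cd83*, *Cd69*, *Icam1* and *Cd86* in CD45.2+ EarlyGC1-like cells of the *Dock8* wt/wt-labelled and *Dock8* cpm/cpm-labelled mice, with 1 point per mouse and black bars for the mean and SD (n = 3). *Cd83* is the 1 member of the 4 whose groups stand well apart, at 260 to 307 against 140 to 175 CPM.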

How the data were processed

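Splenic HEL+CD95+ B cells of 6 recipients, 3 per group, were measured in 2 mRNA and 2 hashtag libraries. The authors aligned reads with Cell Ranger 5.0.1 (mm10) and deposited whole-number UMI counts per gene and barcode and hashtag counts per barcode, without normalization. Mouse and group of each cell came from the hashtag key in the labels. The 10 members and all gene lists were chosen with earlier results of these data known.

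Hashtags were assigned with HTODemux (quantile 0.99) in Seurat 5.3.0 under R 4.3.3, with the packages Matrix, version 1.6.5, and data.table, version 1.17.8, and singlets with under 10% mitochondrial counts and 100 to 5500 genes were kept. Of the 14617 CD45.2+ and 4857 CD45.1+ barcodes with both data types, 8048 and 1562 were hashtag doublets. Scrublet (scanpy 1.11.5) called 4 cells in each fraction, too few to have worked. Merged libraries were normalized with SCTransform (3000 variable genes, without sex-linked genes and members) and grouped into Louvain clusters (resolution 1.2) from 30 principal components. A cluster took the name of the study's marker list with most genes among its 50 leading genes, at least 3, and these lists were chosen by the study on the same libraries. No cluster was LZ3-like.

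Counts were summed per mouse and state (at least 10 cells where single states were compared) and tested over all genes in edgeR 4.0.16 (quasi-likelihood test, genes kept by filterByExpr, TMM factors). Calls are at a Benjamini-Hochberg adjusted p of 0.05. Fractions and states were compared with the mouse as a block, because the same-numbered samples come from the same animal. Hashtag numbers do not pair mice of different groups. DESeq2 1.42.0 was the second tool. Mice were treated as separate samples, and all cells of a fraction shared 1 library. The tests were checked on simulated counts, with the same dispersion for every gene and changed genes drawn from all those tested. In these, 87% of 2-fold changes were recovered between the fractions, 66% between LZ2-like and LZ4-like CD45.2+ cells, 42% between the groups in EarlyGC1-like cells and 38% for the difference of differences. Intervals are at 95%.

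Named genes are the 10 members, the 3 called genes of each gene list that changed most, the 3 genes most like each member with at least 300 UMIs, *Dock8*, and genes that lead a cluster. Outside this rule, and after their values were seen, *Xist*, *Lck*, *Bcl6* and *Rgs13* are named in checks of the labels *Cd24a* and *Plxnb2* between LZ-like and DZ-like cells, and for CD45.1+ cells the 3 genes most like *Icam1*, *Cd69* and *Efnb1*. Python 3.11.15 with numpy 2.4.6, pandas 2.3.3, scipy 1.17.1 and matplotlib 3.10.9 was used for shares, promoters and plots, and gene positions come from GENCODE on GRCm38. Alternatives were other hashtag rules, a stricter cell filter, resolution 0.9, members kept in clustering, removal of high Scrublet scores or of cells against their sex-linked transcripts, DESeq2, RLE size factors, no filter on low counts, other sets of clusters, no block, and each mouse left out.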

Additional observations from a re-analysis of the deposited data

Results flagged for a closer look

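Of 49 groups of CD45.1+ mice checked for a mouse far from the others, 6 held one. The number that chance alone would give is not known where many counts are 0, and most of the 6 rest on a few UMIs. *Cd80* in LZ2-like cells was at 7.08 CPM in mouse 1 labelled *Dock8* wt/wt, from 1 UMI in 29 cells, and at 0 in the other 5 mice. Over all LZ-like cells of that mouse *Cd80* was at 4.43 CPM, from 2 UMIs, against 0 to 1.14 CPM in the others. *Efnb1* in LZ1-like cells was at 7.10 CPM in mouse 3 labelled *Dock8* wt/wt, from 1 UMI, and at 0 in the other 3 mice with enough cells.

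*Cd86* in LZ2-like cells was lowest in mouse 2 labelled *Dock8* cpm/cpm, at 149 CPM from 15 UMIs in 23 cells, against 184 to 203 CPM in the other 5. *Icosl* in DZ-like cells was highest in mouse 3 labelled *Dock8* wt/wt, at 27.0 CPM from 34 UMIs, against 12.8 to 18.1 CPM. *Cd274* in DZ-like cells was highest in mouse 3 labelled *Dock8* cpm/cpm, at 8.34 CPM from 6 UMIs, against 2.02 to 3.84 CPM.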

How the results depend on the processing

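Of 1538 values of single members under an alternative, 1349 kept their direction and their side of the threshold, 52 were no longer called, 12 became called and 5 changed sign where the value was called in at least 1 of both settings. The other 120 changed sign between values that were not called in either setting. The number of members called lower in CD45.2+ than in CD45.1+ cells was 6, and it was 3 with DESeq2, 3 in LZ-like cells alone, 2 in DZ-like cells alone and 2 in LZ4-like cells alone. Without the replicate block for the mouse it was 4, between LZ2-like and LZ1-like cells 2 in place of 3, and between LZ1-like and LZ4-like CD45.1+ cells 4 in place of 3. The block changed no other count of members. Between LZ2-like and LZ4-like cells the count of 3 in CD45.2+ cells was 1 with DESeq2, and the count of 4 in CD45.1+ cells was 0 with hashtags normalized over each cell, where only 3 members could be tested and *Icam1*, *Cd69* and *Efnb1* could not. Between LZ2-like and LZ1-like cells the count of 3 was 6 with hashtags normalized over each cell and 5 at resolution 0.9. Under these settings *Cd69* was -0.79 and -0.94, both called, against 0.10, not called, and *Cd83* was -0.062 and -0.19, neither called, against 0.37, called. At resolution 0.9 no LZ4-like cluster formed, so that the LZ2-like cluster held those cells and the comparison with LZ4-like cells has no value. Between LZ1-like and LZ4-like cells the count of 7 in CD45.2+ cells was 4 with DESeq2, and the count of 3 in CD45.1+ cells was 5 with the rule of a hashtag at least 3 times the next. *Efnb1* between LZ-like and DZ-like CD45.2+ cells was 0.52, called, without the LZ1-like cluster, against -0.01, not called, with it. In EarlyGC1-like cells the count of 0 between the groups was 1, *Cd83*, with DESeq2 and after removal of cells against their sex-linked transcripts, and 0 to 1 when single mice were left out (1 without mouse 2 or mouse 3 labelled *Dock8* wt/wt). The settings with DZ-like or LZ4-like cells alone, without the LZ1-like cluster and after removal of cells by sex-linked transcripts, and the comparison of LZ1-like with LZ4-like cells, were chosen after seeing the data. The cause of these changes was not tested, and some alternatives hold fewer cells or a larger LZ2-like cluster. No alternative called a member between the groups over LZ-like and DZ-like cells of either fraction, or in the difference of differences. Of 60 unthinned shares of cells, 14 lay within the interval of the thinned share. Depth limits the genotype comparisons, in which the smallest mouse holds 18 LZ-like and DZ-like cells and 15 EarlyGC1-like cells.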
